A study of Arabidopsis thaliana with 4 samples.

Results

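Arabidopsis thaliana seedlings use stored oil and protein before their leaves can feed them. Followed here were 3 probe sets picked as signs of the passage from seed to seedling: ICL (AT3G21720), DELTA-VPE (AT3G20210) and probe set 250868_at. They are 3 of 22746 probe sets, the array controls left out. The members were chosen by name and on their measured difference between rsa3-1 and wild type, so that difference is given as a description and carries no test. The pairing of 250868_at with malate synthase (AT5G03860) comes with the selection rule; the platform annotation used here does not list that probe set, and it is called by its identifier.

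All 4 samples were whole seedlings of the ecotype Columbia gl1 carrying the transgene RD29A::LUC, in which a stress-responsive promoter drives luciferase. At 6 days of age, on medium with 2% sucrose and days of 16 h light and 8 h dark, they were given 120 mM NaCl for 24 h. The wild type group and the rsa3-1 mutant group hold 2 arrays each, which the design text calls biological replicates; the mutant is a single allele and no seedlings without salt were analysed here. RNA was hybridised to Affymetrix ATH1 arrays, on which short probes are summarised to 1 value per probe set, here on a log2 scale where a step of 1 is a doubling; levels and differences below are on that scale unless given as a fold. Array medians lay between 6.46 and 6.51, the lowest values on the arrays between 2.57 and 2.61, and Pearson's r across probe sets between 0.993 and 0.997 for all pairs of arrays (probe sets are not independent replicates). Wild type replicate 1 stood apart in the spike-in controls, of which 44 of 45 were highest on it, by a median of 0.94 over the mean of the other arrays; their part in the results was not tested. The label of whole seedlings was checked against shoot and root genes. RCA, the Rubisco activase of green tissue, lay between 13.4 and 13.5 on the 4 arrays, and so did PYK10, a root beta-glucosidase.

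Oilseed seedlings break triacylglycerol down to fatty acids, and peroxisomal beta-oxidation turns these into acetyl-CoA. The glyoxylate cycle then bypasses the carbon-losing steps of the citric acid cycle. Isocitrate lyase splits isocitrate into succinate and glyoxylate, and malate synthase joins glyoxylate to a further acetyl-CoA to give malate, from which gluconeogenesis makes sugar. In Arabidopsis both enzymes are known for transcripts that are high just after germination and decline as the seedling turns green. Vacuolar processing enzymes are cysteine proteases that cut vacuolar proteins next to asparagine. The beta form matures seed storage proteins, and the delta form is known from the inner cell layers of the seed coat.

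The values of all 3 members were lower in rsa3-1 than in wild type on every array. ICL was 11.69 and 11.67 in the wild type replicates 1 and 2, and 10.07 and 9.39 in the rsa3-1 replicates 1 and 2. The groups did not overlap, and the rsa3-1 arrays lay 1.59 to 2.30 below the wild type arrays, which is 3.02 to 4.91-fold. The means were 11.68 ± 0.01 and 9.73 ± 0.48 (SD, n = 2 each). The log2 difference was -1.94 (limma standard error 0.20), which makes ICL 3.85-fold lower.

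Probe set 250868_at followed the same order of arrays. It was 10.80 and 10.57 on the wild type arrays against 9.13 and 8.27 on the rsa3-1 arrays, again without overlap. The smallest distance between an array of one genotype and an array of the other was 1.45 and the largest 2.53, on the log2 scale. Its means were 10.68 ± 0.16 and 8.70 ± 0.61 (SD, n = 2 each). Their difference was -1.99 (standard error 0.25), or 3.96-fold lower.

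DELTA-VPE, the protease, had nearly equal wild type levels of 7.45 and 7.42. In rsa3-1 the levels were 5.74 and 5.07, so the groups did not overlap. No rsa3-1 array reached within 1.68 of a wild type array. The means were 7.44 ± 0.02 and 5.404 ± 0.476 (SD, n = 2 each). They differed by -2.03 (standard error 0.20), or 4.09-fold. Detection calls were not used here, so how far the rsa3-1 value sits above background is not known. In whole seedlings, fewer cells of a type and less RNA per cell cannot be told apart, for this transcript or the others.

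**Figure D1:**
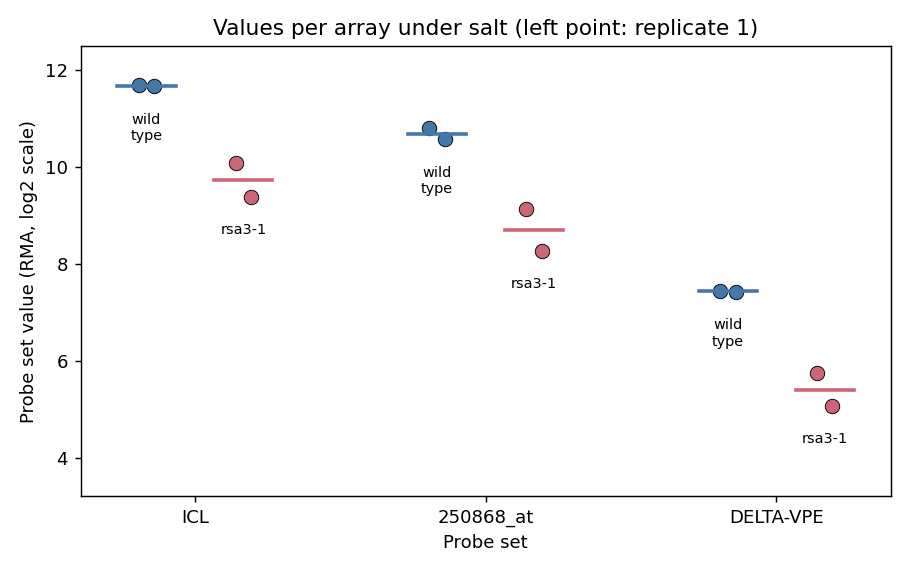
Value of each probe set on each array (RMA, log2 scale), with wild type in blue, rsa3-1 in red, replicate 1 on the left of each pair, and a bar at the mean of 2 arrays. In each probe set both rsa3-1 points lie below both wild type points, and rsa3-1 replicate 2 is the lowest. Heights may be compared within a probe set and not between probe sets.

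The sizes of the 3 differences lay within 0.09 of each other on the log2 scale, less than any of their standard errors. By size of decrease they stood 3rd (DELTA-VPE), 5th (250868_at) and 6th (ICL) among 22746 probe sets, whose median difference was -0.009. Values of rsa3-1 lay below wild type without overlap in 20.9% of all probe sets, and in 38.6% the groups did not overlap in either direction. The limma test across all probe sets, at an adjusted p under 0.05, called 1.13% of them, with 0.466% lower and 0.659% higher in rsa3-1. All 3 members are among those called lower, which follows from how they were chosen. With either wild type array left out, not every member stayed under that threshold. Such a fit holds 1 wild type array and uses the contrast on which the members were chosen, so it does not rank them. Without wild type replicate 1 their differences were -1.93 for ICL, -1.87 for 250868_at and -2.02 for DELTA-VPE.

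The rsa3-1 replicates differed from each other in all 3 members, a comparison within one genotype, on arrays that the selection also used. Replicate 2 was lower than replicate 1 by 0.68 for ICL, 0.86 for 250868_at and 0.67 for DELTA-VPE. Over all probe sets the median absolute difference between these 2 arrays was 0.110, and 1% of probe sets exceeded 0.522. Differences as large as that of the member, in either direction, occurred in 54 probe sets for ICL (0.237%), 18 for 250868_at (0.0791%) and 61 for DELTA-VPE (0.268%). The wild type replicates differed by 0.02 for ICL and for DELTA-VPE and by 0.22 for 250868_at, all with replicate 2 lower. Differences of those sizes were common between the wild type arrays, where 91.1%, 90.2% and 23.7% of probe sets had one at least as large.

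**Figure D2:**
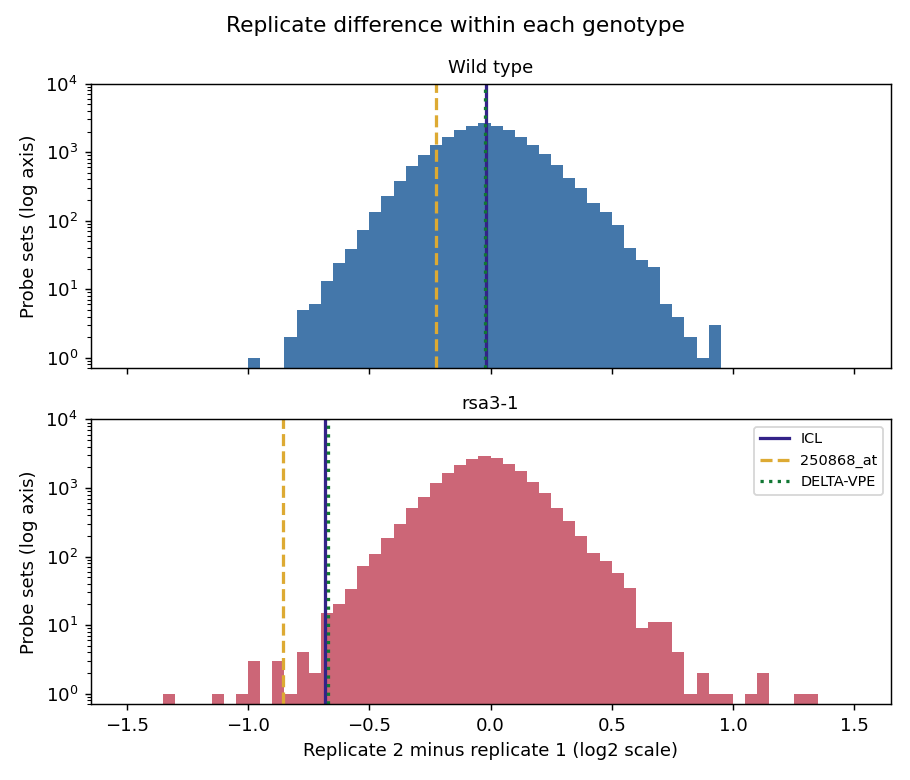
Number of probe sets (log axis) by the difference of replicate 2 minus replicate 1 on the log2 scale, in bins of 0.05, for wild type above and rsa3-1 below; 2 probe sets beyond the drawn range of rsa3-1 are not shown. Vertical lines mark ICL, 250868_at and DELTA-VPE, which lie within the bulk of the distribution in wild type and in its lower tail in rsa3-1.

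Among the transcripts called lower in the mutant, replicate 2 also tended to lie below replicate 1, with no test. In rsa3-1 this is shown by count and by median, in wild type by median only. Of the 106 probe sets called lower, 82 were lower in rsa3-1 replicate 2 than in replicate 1 (77.4%, against 54.99% of all probe sets), with a median of -0.13. The wild type replicates of these 106 differed the same way, with a median of -0.10, while over all probe sets the medians were -0.019 in rsa3-1 and -0.022 in wild type. Of the 61 probe sets called and at least 2-fold lower, 52 were lower in rsa3-1 replicate 2 than in replicate 1 (85.2%). Their medians were -0.30 in rsa3-1 and -0.13 in wild type. Among the 28 probe sets whose rsa3-1 replicates differed in that direction by at least as much as the members, 11 were among the 106, the members included. What separates the 2 mutant arrays was not tested.

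The profile of each member over the 4 arrays was then set against those of all other probe sets, each centred on its own mean, by Euclidean distance. The distance is a description of 4 values dominated by the genotype difference on which the members were chosen. The nearest of the 22745 other probe sets to ICL was DELTA-VPE, at a distance of 0.087, and the nearest to DELTA-VPE was ICL. Probe set 250868_at stood 3rd from ICL at 0.193 and 3rd from DELTA-VPE at 0.198. For scale, the median probe set lay 0.197 from a flat profile.

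Among probe sets that name 1 gene, the 5 nearest to each member made up 7 distinct genes, and 4 of these were shared by all 3 members. AT1G65090 was nearest to ICL (0.107) and to DELTA-VPE (0.150). It was 7.52 and 7.38 in wild type, against 5.83 and 5.23 in rsa3-1, with the same order of arrays as the members. AtLEA4-1, of the late embryogenesis abundant proteins, which accumulate in drying seeds, was nearest to 250868_at (0.132), followed by AT3G01570, an oleosin gene (0.147). AT5G66780 was the fourth gene shared by all, at 0.289 from ICL, 0.211 from 250868_at and 0.222 from DELTA-VPE. Outside these 4, LEA18 was near ICL (0.304), AT3G15670, another late embryogenesis abundant gene, near 250868_at (0.301), and AT5G10120, of the EIN3-like family, near DELTA-VPE (0.310).

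**Figure D3:**
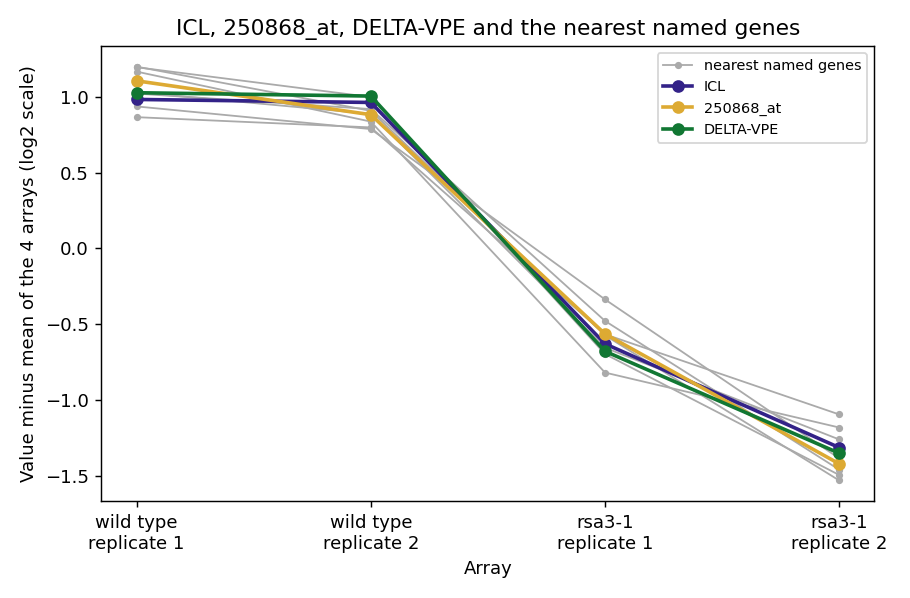
Values on each array minus the mean of the 4 arrays (log2 scale) for ICL, 250868_at and DELTA-VPE in colour and their 7 nearest named genes in grey. The lines join arrays for reading and imply no order; both wild type arrays lie above the mean and rsa3-1 replicate 2 is the lowest array for every line.

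Other genes of reserve use, and genes of peroxisomes, photosynthesis, root, seed coat and sugar starvation, were read from 15 lists of 157 entries. Of these entries 37 were measured, meaning that the annotation names a probe set for them. Without ICL and DELTA-VPE this left 35 genes. By limma at an adjusted p under 0.05, 4 of them were lower in rsa3-1 and 0 were higher. These counts are read beside the 0.466% and 0.659% of all probe sets called lower and higher. At an unadjusted limma p under 0.05 there were 12 of the 35. The share of all probe sets at that unadjusted threshold was not computed. The 12, and the unadjusted values given per list below, therefore have no background to be read against. The lists were drawn up with earlier results of these data known, so all these counts are a description. The 4 came from the lists of vacuolar processing enzymes, seed storage proteins and oil body coat proteins. Over the 35, which mix reserve use genes with the others, the median difference was -0.05, against -0.009 for all probe sets. Groups did not overlap in 27 of the 35, against the 38.6% given above for all probe sets.

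In the vacuolar processing enzyme family all 4 members were measured. BETA-VPE, the seed form that matures storage proteins, fell in rsa3-1. It was 9.60 and 9.42 on the wild type arrays against 8.65 and 8.59 on the rsa3-1 arrays, so the groups did not overlap and the mutant replicates differed by only 0.07, unlike those of DELTA-VPE. That is a change of -0.89 (standard error 0.11), or 1.85-fold lower (limma adjusted p = 0.011). It no longer passed when wild type replicate 1 was left out (adjusted p = 0.071, difference -0.80), nor when rsa3-1 replicate 2 was (adjusted p = 0.057, difference -0.86). The 2 forms of vegetative tissue did not pass: ALPHA-VPE had a difference of 0.01 (limma adjusted p = 0.997) and GAMMA-VPE of -0.10 (limma adjusted p = 0.83).

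ALPHA-VPE was 6.38 and 6.38 in wild type, against 6.22 and 6.57 in rsa3-1, where the groups overlap and rsa3-1 replicate 2 is the higher array. GAMMA-VPE was 10.38 and 10.25 on the wild type arrays against 10.21 and 10.21 on the rsa3-1 arrays.

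Seed storage proteins, which the beta form matures, are the nitrogen reserve of the embryo. Of 13 listed, 5 were measured, and 1 fell while 4 did not pass (3 of the 5 had an unadjusted p under 0.05). The list median was -0.55. AT2G28490, a vicilin-like protein, was 8.79 and 8.77 in wild type, against 7.79 and 7.30 in rsa3-1, which gives -1.23 (standard error 0.16; limma adjusted p = 0.015). Leaving out wild type replicate 1 ended this call (adjusted p = 0.10, difference -1.23), as did leaving out wild type replicate 2 (adjusted p = 0.087, difference -1.24). AT4G36700, another vicilin-like gene, was 6.74 and 7.02 on the wild type arrays against 6.02 and 5.22 on the rsa3-1 arrays, a difference of -1.26 that did not pass (limma adjusted p = 0.074). Without rsa3-1 replicate 1 it did pass (adjusted p = 0.0018, difference -1.66), and without rsa3-1 replicate 2 its difference was -0.86. In both vicilin-like genes rsa3-1 replicate 2 was below replicate 1, by 0.49 and 0.80. In the other 3 measured storage protein genes it was above, by 0.0077 to 0.39. Of these 3, AT2G18540, at 3.59 to 3.85, and AT1G03890 lay near the low end of the array values. PAP85, a vicilin, had a difference of -0.55 (limma adjusted p = 0.26) and the 12S globulin gene AT1G03890 of 0.24 (limma adjusted p = 0.67), the latter at 3.51 to 3.98 on all arrays.

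Oil body coat proteins surround the triacylglycerol store. Both measured genes of the 8 listed fell, OLEO3 with a difference of -1.501 (limma adjusted p = 0.0015) and AT3G01570 with -2.11 (limma adjusted p = 0.016). OLEO3 was 6.58 and 6.39 in wild type, against 5.03 and 4.93 in rsa3-1, so its mutant replicates lay close together where those of AT3G01570, 7.49 and 6.53, did not. AT3G01570 no longer passed with wild type replicate 1 left out (adjusted p = 0.13, difference -1.96) or with wild type replicate 2 left out (adjusted p = 0.076, difference -2.25).

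The measured genes for oil lipolysis, beta-oxidation and gluconeogenesis, a part of those listed, had differences between -0.28 and 0.21. Of 7 genes listed for oil lipolysis and glycerol use, 5 were measured and 0 passed; 1 had an unadjusted p under 0.05, and the median was -0.05. SDP1, the main triacylglycerol lipase of seedlings, was 7.60 and 7.32 on the wild type arrays against 7.30 and 7.31 on the rsa3-1 arrays, a difference of -0.15. AT3G14360 (OBL1, an oil body lipase) had a difference of -0.26, AT4G24160 (CGI58) of 0.21 and AT4G10790 (PUX10, which removes oil body proteins) of -0.05. For beta-oxidation the measured gene, 1 of 19 listed, was AIM1, a multifunctional protein, at 10.46 and 10.48 in wild type, against 10.38 and 10.45 in rsa3-1. For gluconeogenesis it was PPDK, the pyruvate phosphate dikinase, 1 of 4 listed. PPDK was 8.30 and 8.08 on the wild type arrays against 7.93 and 7.90 on the rsa3-1 arrays. The groups did not overlap, and the PPDK difference of -0.28 did not pass (limma adjusted p = 0.48, unadjusted p = 0.041). The other 9 genes listed for the glyoxylate cycle, among them the peroxisomal citrate synthases and malate dehydrogenases, were not analysed here, nor were the listed PCK1 and PCK2.

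Vacuolar proteases other than the processing enzymes did not pass in 6 of 6 measured cases (14 listed; 2 at an unadjusted p under 0.05). AT1G62290, the aspartic protease APA2, had a difference of -0.45 (limma adjusted p = 0.19) and passed when the variance was fitted with a trend and robustly (adjusted p = 0.046). The cathepsin B-like gene AT4G01610 had -0.24, APA1 -0.15 and AT4G04460 (APA3) 0.19. The list median was -0.07.

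**Figure D4:**
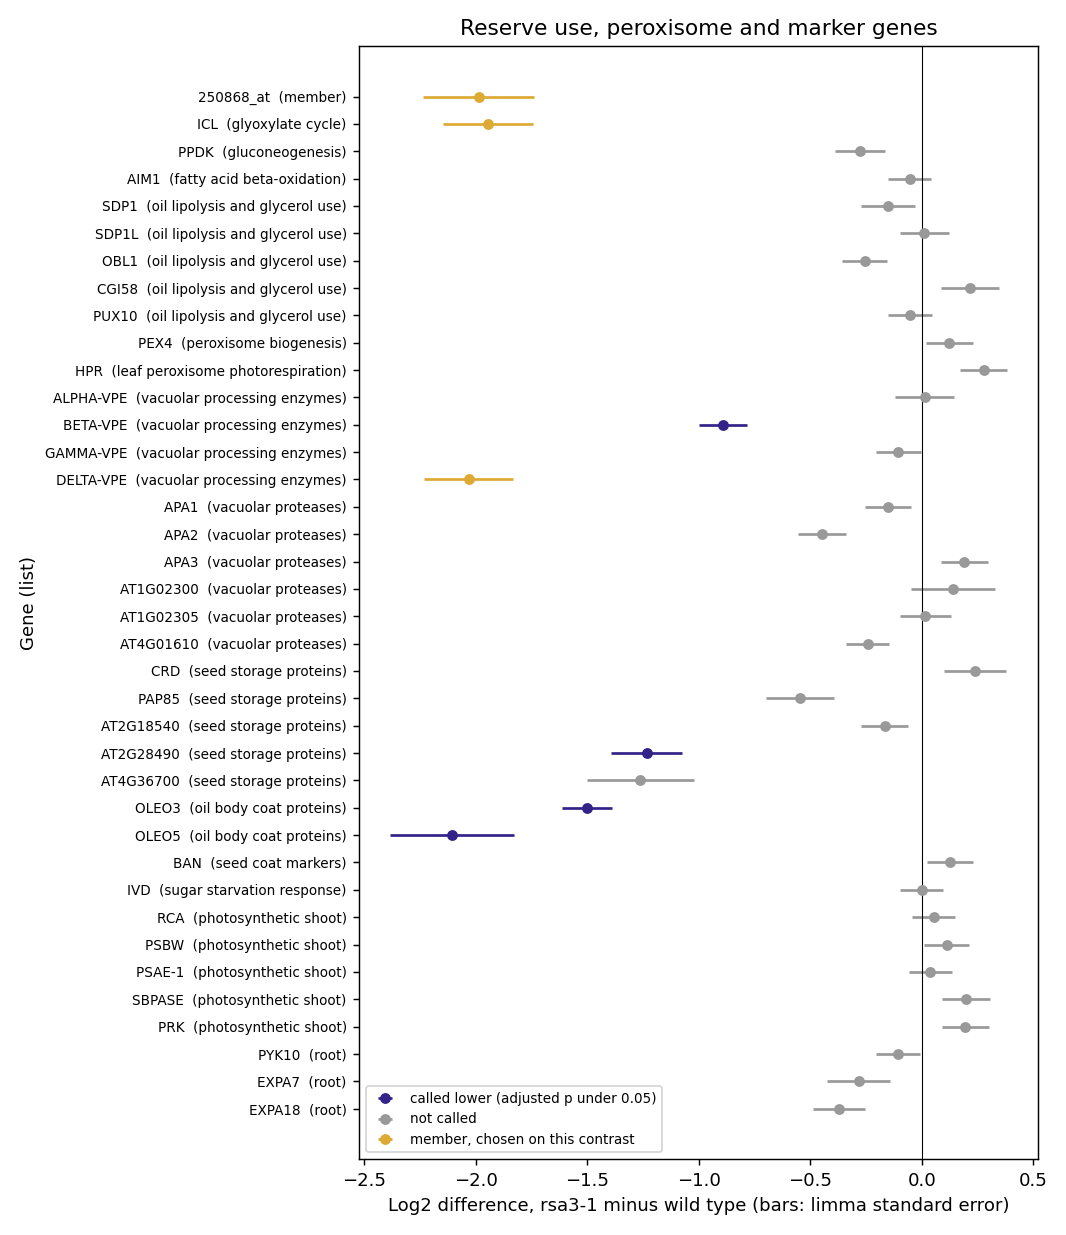
Log2 difference, rsa3-1 minus wild type, with the limma standard error for 250868_at and every measured gene of the 15 lists (list in brackets). Members stand in yellow, genes called lower in dark blue and genes not called in grey. BETA-VPE, AT2G28490, OLEO3 and OLEO5 (AT3G01570) are the genes called lower.

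As seedlings turn green, peroxisomes of oil-storing cotyledons exchange glyoxylate cycle enzymes for those of photorespiration. HPR, the hydroxypyruvate reductase and the measured gene of 10 listed for leaf peroxisomes, was 11.94 and 12.10 in wild type, against 12.32 and 12.27 in rsa3-1. The groups did not overlap, and the HPR difference of 0.28 did not pass (limma adjusted p = 0.44, unadjusted p = 0.031). PEX4, the measured gene of 20 listed for peroxisome biogenesis, had a difference of 0.12 (limma adjusted p = 0.79).

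Markers of other tissues were read beside the members. Of 16 photosynthetic shoot genes 5 were measured, 0 passed (0 at an unadjusted p under 0.05) and all 5 values were above 0, with a median of 0.11 and SBPASE, PRK, PSBW and RCA at 0.20, 0.20, 0.11 and 0.05. Their summed level, on the log2 scale, was 15.10 and 15.12 on the wild type arrays against 15.19 and 15.22 on the rsa3-1 arrays. Of 8 root genes 3 were measured and 0 passed (1 at an unadjusted p under 0.05), with EXPA18 at -0.37, EXPA7 at -0.28 and PYK10 at -0.11, a median of -0.28. The summed root level was 13.49 and 13.57 in wild type, against 13.43 and 13.41 in rsa3-1. BAN, the measured seed coat gene of 6 listed, lay between 3.67 and 3.89 on all arrays, with a difference of 0.13. IVD, the measured gene of 6 in the sugar starvation list, had a mean of 7.58 in both genotypes. The part of tissue proportions or of seedling stage in the differences of ICL, 250868_at and DELTA-VPE was not tested.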

How the data were processed

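The deposited values are log2 values; the authors made them with RMA, per the submitters' processing notes. RMA includes background correction, a normalization across arrays, which removes any shift shared by most transcripts, and a summary over probes, and it compresses differences of dim probe sets. Which RMA software and probe definition were used is not given in the sources used here. Of 22810 probe sets, 64 array controls were left out. The platform annotation gave 1 gene for 13513, several for 503, and did not list 8730; 13436 of the first matched the RefSeq table of TAIR10.1 by gene identifier.

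A linear model per probe set was fitted with limma 3.58.1 under R 4.3.3 (lmFit, then eBayes; two-sided; rsa3-1 minus wild type), with Benjamini-Hochberg adjustment over 22746 probe sets and a threshold of 0.05. The number of arrays limits the precision. Tables and figures used Python 3.11.15, pandas 2.3.3 and matplotlib 3.10.9. Lists use 1 probe set per gene, that of highest mean.

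The members and lists were chosen with earlier results of these data known. Named genes are the members, all measured genes of the glyoxylate cycle, gluconeogenesis and processing enzyme lists, up to 4 of smallest p in other lists, and the 5 nearest named genes per member. No listed seed maturation regulator or seed vacuole channel was analysed here. On simulated data for this comparison (22746 probe sets, 10 runs, 200 changed in each) recovery was 19.6% at 1.5-fold, 91.2% at 2-fold and 100.0% at 4-fold, with 5.78% of calls false. The simulated noise was independent and normal, with variances drawn from the limma fit and no shift shared by probe sets of an array. These rates describe that setting and may not hold for the arrays used here. Alternatives covered normalization, filters on dim probe sets, variance model, weights per array, a block for the replicate number, leaving out each array, and the mean of a gene's probe sets.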

Additional observations from a re-analysis of the deposited data

How the results depend on the processing

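Array weights and the block leave a difference of this balanced design nearly or wholly as it is, by construction. With an array left out the differences of ICL, 250868_at and DELTA-VPE ran from -2.29 to -1.60, -2.42 to -1.56 and -2.37 to -1.69; as the groups do not overlap, the sign could not turn. The 256 calls (106 lower, 150 higher) became 42 (10 and 32) with the replicate number as a block, and 102 to 222 with an array left out (27 to 98 lower, 73 to 124 higher). They were 102 without wild type replicate 1, 127 without the other wild type array and 143 without rsa3-1 replicate 2, fits in which the lone array is assumed to vary like the other genotype. The 4 listed genes called lower became 1 with the replicate block and 1 to 5 with an array left out (1 if wild type replicate 1 is left out, 2 if wild type replicate 2 is), and were 4 to 6 under the other alternatives. With the block 0 of the 3 members were called, a count on the contrast by which they were chosen. The limma adjusted p with the block was 0.093 for BETA-VPE, 0.11 for AT2G28490 and 0.070 for AT3G01570. OLEO3 passed in all 11 alternatives that tested it (its mean lies under the filter of 6). Deviations of same-numbered arrays correlated at 0.013 across all probe sets. In the 106 called lower, replicate 2 was the lower by median in both genotypes (-0.13 in rsa3-1, -0.10 in wild type). Whether same-numbered arrays are paired was not tested. AT4G36700 also passed with arrays at a common median (0.041), a filter at a mean of 6 (0.049) and trended and robust variance (0.024). Small values turned sign: with an array left out ALPHA-VPE ran from -0.16 (without rsa3-1 replicate 2) to 0.19, and IVD from -0.033 (without wild type replicate 1) to 0.033, with -0.0040 without rsa3-1 replicate 2. Each listed gene has 1 probe set, so averaging probe sets changed only the other features tested. The cause of the lost calls was not tested.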
